A study of Sus scrofa with 12 samples.

Results

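Matricellular genes code for secreted proteins of the extracellular matrix that bind cells and growth factors more than they bear load. The 10 genes SPP1, POSTN, TNC, THBS1, THBS2, THBS3, THBS4, SPARC, SPARCL1 and FN1 were listed by name, with earlier results of these data known, and all 10 had an identifier among the 35682 genes counted. They were described in 12 libraries from the hearts of 6 Yorkshire pigs, 1 from the border zone and 1 from the remote zone of each animal. The pigs, 10 to 12 weeks old, had the left anterior descending artery closed by a balloon for 60 min and then reperfused. From day 9 all received prednisolone at 20 mg, tacrolimus at 0.75 mg/kg and mycophenolate mofetil at 500 mg, each per day, so both regions carry the infarct history and the immunosuppression. A left thoracotomy followed on day 14. Animals were given either sheets of human smooth muscle and endothelial progenitor cells (vascular organoids) or fibrin glue alone. The sheets were laid over the infarct and border zones and held with the glue, and hearts were taken 28 days later. Which animal received which was not used here. Both regions hold animals of either kind, but the sheets were placed at the border zone. In animals given sheets, region and local treatment therefore cannot be told apart. The border zone was the mid-level tissue next to the visible infarct and the remote zone was mid-level posterior wall, and the comparison asks how the former differed from the latter in the same hearts.

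After a myocardial infarct, macrophages and activated fibroblasts fill the injured wall with a provisional matrix that is later replaced by collagen scar. Osteopontin (SPP1), fibronectin (FN1), tenascin-C (TNC) and periostin (POSTN) are laid down in such tissue and bind integrins, thrombospondins bind growth factors, proteases and matrix proteins, and SPARC binds collagen during its assembly. SPARCL1, the SPARC-like protein hevin, is a relative of SPARC that is also found in vessels and uninjured tissue.

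The total counts were 15130210 to 30526110 in the border zone libraries and 20091415 to 31618680 in those of the remote zone, and every count of the 10 genes was 10 or more. Values are given as CPM, the count scaled to the library's TMM-normalized total. The summed CPM of 7 cardiomyocyte markers was lower at the border than in the remote zone in 6 of 6 animals, with a median of 38057 in the border zone and 49101 in the remote zone. The border zone library of animal 1022 stood apart, with 9503 CPM of these markers, and 58850 CPM of 8 fibroblast and matrix markers against 3008 to 11326 in the other 5. That of animal 3622 had the lowest total and counts on 28024 genes, while the others had counts on 16932 to 20148. The share of mitochondrially encoded genes was 5.69% to 17.3% at the border, 13.6% to 33.5% in remote tissue, and lower at the border in 5 of 6 animals. Without these genes in the fit, edgeR called 7 of the 10 genes higher at the border in place of 8. It called 252 of all 13834 genes tested higher. THBS2 was then just above the threshold and not called (adjusted p = 0.050006). In bulk tissue, fewer cells of a type and less RNA per cell cannot be told apart.

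Sequence just upstream of the RefSeq start of each gene is shown for 3 of them, SPP1, which had the largest difference between the regions, POSTN, which passed the test both with and without the animal as a block, and THBS1, which was called in neither. The 250 bases end at the base before the start (Sscrofa11.1, all on the minus strand, read 5′ to 3′), and capitals mark a match to a searched motif. They lie at chr8:131085335-131085584 for SPP1, chr11:13258974-13259223 for POSTN and chr1:131746099-131746348 for THBS1.

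SPP1: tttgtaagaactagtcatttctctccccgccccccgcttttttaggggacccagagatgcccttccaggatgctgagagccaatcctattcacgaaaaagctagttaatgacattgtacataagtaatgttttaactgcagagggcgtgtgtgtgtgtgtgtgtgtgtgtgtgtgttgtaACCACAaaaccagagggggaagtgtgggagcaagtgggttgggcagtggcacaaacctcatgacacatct

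POSTN: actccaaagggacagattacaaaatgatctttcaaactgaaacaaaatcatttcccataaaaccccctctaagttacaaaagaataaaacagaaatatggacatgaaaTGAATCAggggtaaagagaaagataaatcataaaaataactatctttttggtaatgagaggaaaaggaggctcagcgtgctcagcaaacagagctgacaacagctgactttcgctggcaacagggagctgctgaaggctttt

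THBS1: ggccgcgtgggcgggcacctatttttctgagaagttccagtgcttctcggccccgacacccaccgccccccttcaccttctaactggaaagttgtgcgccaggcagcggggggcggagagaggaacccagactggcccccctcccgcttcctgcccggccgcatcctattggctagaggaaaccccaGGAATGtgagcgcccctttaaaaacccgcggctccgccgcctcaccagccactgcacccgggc

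The motif TGTGGT, known for RUNX factors, was found in the SPP1 window on the opposite strand, 70 to 65 bases before the start, and also in those of SPARCL1 and FN1. It occurs in 13.9% of the 19532 windows of this length in the annotation. POSTN held the AP-1 motif TGANTCA 142 to 136 bases before its start (5.25% of all windows hold it) and THBS1 the TEAD motif GGAATG 63 to 58 bases before its start (10.3%). The SMAD motif CAGACA lay in the windows of THBS2 and SPARCL1 (12.8%), and TATAAA in none of the 10 (9.76%). Both strands were searched, and none of the motifs overlapped another in the 10 windows. These matches are letters in a window and not shown to be sites. The RefSeq starts of SPARC and FN1 may not be the starts used in the heart, so their windows, which are among the 10, are uncertain as promoters. The GC content was 48.0% for SPP1, 38.0% for POSTN and 66.0% for THBS1, with a median of 57.6% over all windows.

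Of the 10 genes, 8 were higher in the border zone at an adjusted p under 0.05 and none was lower, by the quasi-likelihood test of edgeR with Benjamini-Hochberg adjustment over 13844 genes. Region was the only term of this test, which did not use the pairing of libraries by animal. Over all genes tested, 2.06% were called higher, a share that does not allow for how the 10 were listed. The 8 were SPP1, TNC, FN1, POSTN, THBS4, SPARC, THBS3 and THBS2, and the 2 others were THBS1 and SPARCL1. The median log2 fold change of the 10 genes was 3.09, against 0.04 for all genes, and it was 2.66 with the animal as a block and 2.30 without animal 1022. Every border zone library was above every remote zone library for 7 genes, which 1.99% of all genes tested showed, and for 9 genes the border zone was above the remote zone in every one of the 6 animals, which 11.7% showed. With the animal as a block, 2 of the 10 genes, POSTN and THBS3, were called, against 0.289% of all genes called higher. Without both libraries of animal 1022, 7 were called, against 1.14%, and SPP1 was the one lost. Without animal 1323, 1623, 1922 or 3622 none of the 10 was called, and 9, 10, 9 and 10 of them had an unadjusted p under 0.05. Over all genes these fits called 3, 0, 15 and 0, so the loss was not particular to the 10 genes. In the same 4 fits the log2 fold changes of the 8 called genes were no smaller than with all animals, at 8.63 to 8.85 for SPP1, 5.31 to 5.41 for FN1 and 2.97 to 3.03 for THBS3.

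**Figure D1:**
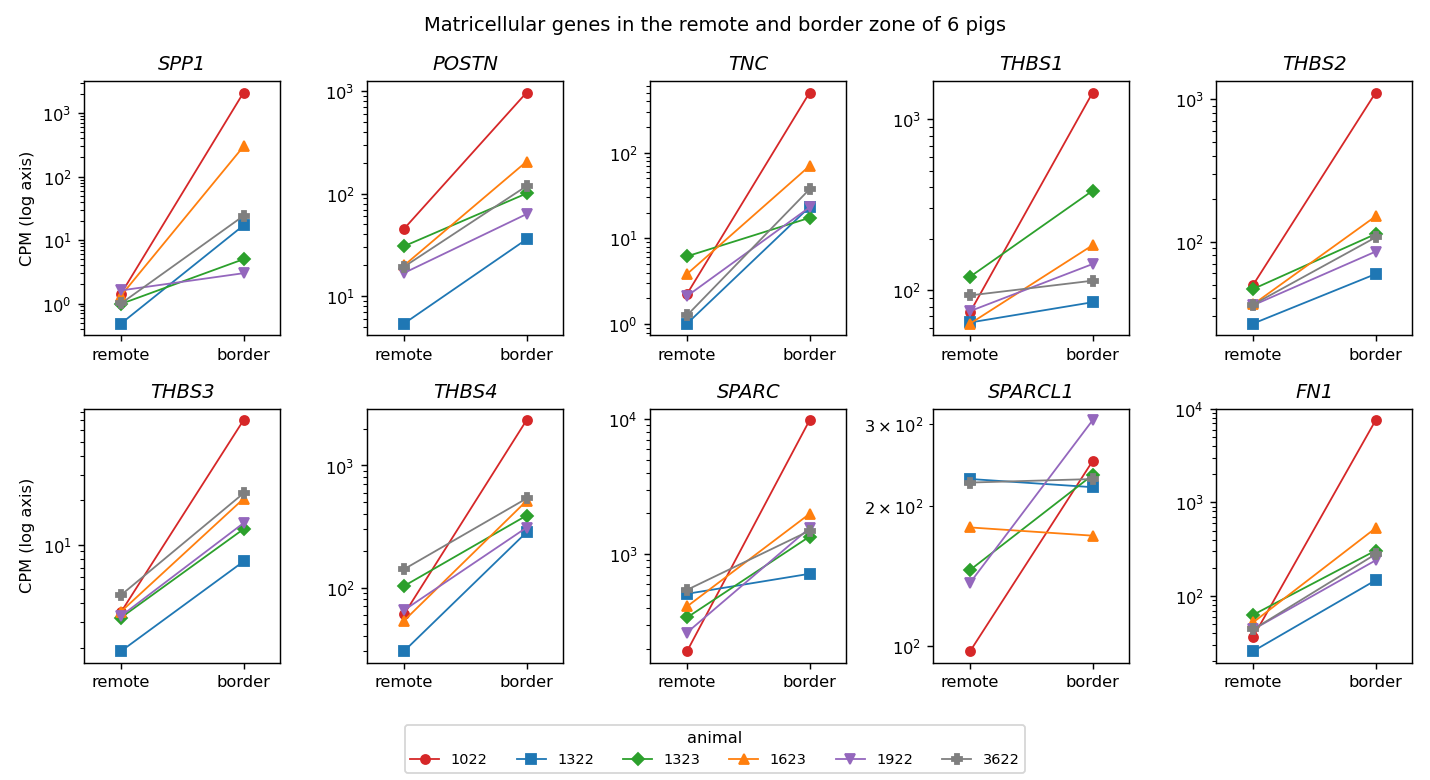
CPM of each of the 10 genes (log axis, a separate scale in each panel) in the remote and border zone, with a line joining the 2 libraries of an animal. The border zone point is the higher one in all 6 animals for 9 genes, and for SPARCL1 in 4 of 6.

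The first group is that of integrin-binding proteins of the provisional matrix, given with identifier and RefSeq position on Sscrofa11.1. SPP1 (ENSSSCG00000009216, chr8:131077786-131085334) codes for osteopontin, a phosphoprotein made by activated macrophages and other cells. Its CPM in the border and remote zone was 2106 and 1.43 in animal 1022, 299.1 and 1.34 in animal 1623, 24.1 and 1.0 in animal 3622, 17.0 and 0.484 in animal 1322, 5.0 and 0.988 in animal 1323, and 3.01 and 1.61 in animal 1922. The remote zone values lay within 3.33-fold of each other and those of the border zone spanned 699.8-fold, with no overlap between the regions. The fitted log2 fold change was 8.48 ± 1.69 (SE, n = 6 libraries in each region, not paired by animal, adjusted p = 0.0293). With the block it was 5.10 ± 1.37 (adjusted p = 0.0830), and without animal 1022 it was 5.98 ± 1.31 (adjusted p = 0.0581). The median of the within-animal log2 differences was 4.70, with a range of 0.87 to 10.45. The library of animal 1022 held 85.8% of the border zone sum. The study picked SPP1 from these libraries when it compared organoid with control animals within the border zone, a comparison not analysed here. Whether the treatment moved with the wide spread of SPP1 among border zone libraries was not tested.

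FN1 (ENSSSCG00000016174, chr15:117658158-117737145) codes for fibronectin, the adhesive scaffold of early scar. Its CPM was 147.5, 293.2 and 7553 in the border zone (lowest, median and highest) and 25.8, 44.0 and 63.0 in the remote zone. The regions did not overlap, and the border zone library of animal 1022 was 14.2-fold above the next highest. The log2 fold change was 5.09 ± 1.02 (SE, adjusted p = 0.0294), 3.20 ± 0.69 with the block (adjusted p = 0.0748) and 2.71 ± 0.33 without animal 1022 (adjusted p = 0.00552). In the other 5 animals the within-animal log2 differences were close together, from 2.28 to 3.34, and in animal 1022 it was 7.69.

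TNC (ENSSSCG00000005494, chr1:255533235-255630381) codes for tenascin-C, a glycoprotein of embryonic and injured tissue that is scarce in healthy myocardium. Its border zone CPM was 17.4, 30.4 and 501.2 and its remote zone CPM 1.02, 2.19 and 6.19, again without overlap. The log2 fold change was 5.31 ± 0.95 (SE, adjusted p = 0.0253), 4.29 ± 0.75 with the block (adjusted p = 0.0564) and 3.53 ± 0.53 without animal 1022 (adjusted p = 0.0101). The smallest within-animal log2 difference, 1.48, was that of animal 1323, whose remote zone library was the highest of its region.

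POSTN (ENSSSCG00000009361, chr11:13225183-13258973) codes for periostin, a marker of activated fibroblasts that promotes collagen cross-linking. Its CPM was 35.8, 109.7 and 972.8 in the border zone and 5.38, 19.6 and 45.4 in the remote zone. The regions overlapped, since the border zone library of animal 1322 (35.8) was below the remote zone library of animal 1022 (45.4), yet within each animal the border zone was higher. The within-animal log2 differences ranged from 1.71 to 4.42. The log2 fold change was 3.44 ± 0.78 (SE, adjusted p = 0.0395), 2.78 ± 0.37 with the block (adjusted p = 0.0410) and 2.5 ± 0.48 without animal 1022 (adjusted p = 0.0281).

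**Figure D2:**
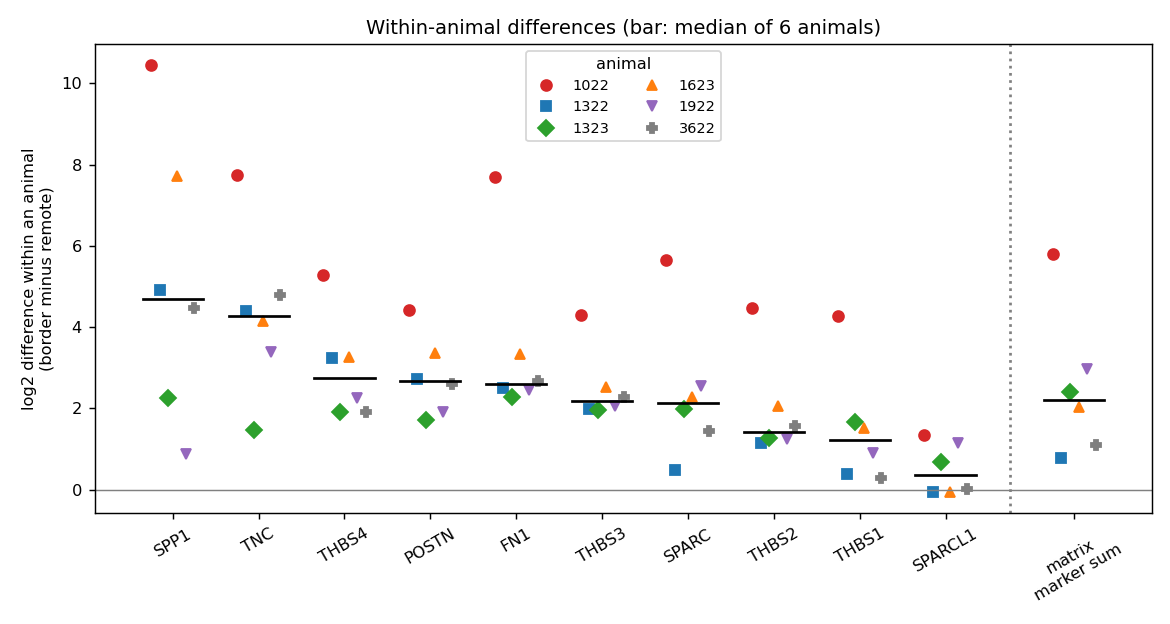
Log2 CPM in the border zone minus that in the remote zone (y axis) of each animal for the 10 genes and for the summed fibroblast and matrix markers, with a bar at the median of the 6 animals. Animal 1022 has the largest difference for all 10 genes, and the medians run from 4.70 for SPP1 to 0.35 for SPARCL1.

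The thrombospondins are calcium-binding glycoproteins. THBS1 (ENSSSCG00000004789, chr1:131728781-131746098) and THBS2 (ENSSSCG00000004012, chr1:854473-882467) form trimers and inhibit vessel growth. THBS3 (ENSSSCG00000006524, chr4:94612702-94623905) and THBS4 (ENSSSCG00000014117, chr2:88729531-88780759) form pentamers. Per kb of exon, THBS4 was the highest of the 4 and THBS3 the lowest in both regions by median. For THBS4, the border zone CPM was 283.8, 450.9 and 2351 and the remote zone CPM 30.1, 62.8 and 141.3, without overlap. The log2 fold change was 3.27 ± 0.58 (SE, adjusted p = 0.0244), 2.92 ± 0.47 with the block (adjusted p = 0.0563) and 2.36 ± 0.37 without animal 1022 (adjusted p = 0.0118). THBS3 had 7.69, 17.3 and 70.3 CPM in the border zone and 1.89, 3.38 and 4.55 in the remote zone. Its within-animal log2 differences lay between 1.97 and 2.52 in 5 animals and at 4.30 in animal 1022. Its log2 fold change was 2.89 ± 0.47 (SE, adjusted p = 0.0189, the lowest of the 10 genes), 2.54 ± 0.32 with the block (adjusted p = 0.0410) and 2.23 ± 0.31 without animal 1022 (adjusted p = 0.00785). Exons of THBS3 and THBS4 share up to 121 and 42 bases with an lncRNA gene on the other strand, and the libraries did not keep strand, so reads there cannot be told apart.

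THBS2 had 59.3, 110.2 and 1111 CPM in the border zone and 26.6, 36.3 and 49.8 in the remote zone, without overlap. Its log2 fold change was 2.81 ± 0.67 (SE, adjusted p = 0.0489), 1.88 ± 0.43 with the block (adjusted p = 0.0783) and 1.5 ± 0.23 without animal 1022 (adjusted p = 0.0104). The edgeR call of THBS2 was also lost with DESeq2 size factors (adjusted p = 0.0559) and without a filter (adjusted p = 0.107). The same held with at least 10 counts in every library (adjusted p = 0.0581). THBS1, an activator of latent TGF-beta, did not pass by edgeR with all 6 animals and TMM. It had 84.8, 162.3 and 1429 CPM in the border zone and 63.6, 74.7 and 119.6 in the remote zone. The regions overlapped, although the border zone was higher within each animal, by a log2 difference of 0.29 (animal 3622) to 4.27 (animal 1022). The log2 fold change of THBS1 was 2.25 ± 0.62 (SE, adjusted p = 0.0674), 1.42 ± 0.50 with the block (adjusted p = 0.115) and 1.11 ± 0.36 without animal 1022 (adjusted p = 0.161). It was called by the DESeq2 Wald test (2.20 ± 0.57, adjusted p = 0.00405), with library totals (2.68 ± 0.68, adjusted p = 0.0295) and in the blocked fit without animal 1022 (0.96 ± 0.22, adjusted p = 0.0427).

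SPARC (ENSSSCG00000017082, chr16:71368164-71380972) and SPARCL1 (ENSSSCG00000009222, chr8:131386804-131431427) code for related collagen-binding proteins. SPARC had 716.7, 1526 and 9770 CPM in the border zone and 192.2, 376.1 and 545.5 in the remote zone, without overlap. Its log2 fold change was 2.90 ± 0.59 (SE, adjusted p = 0.0320), 2.27 ± 0.61 with the block (adjusted p = 0.0829) and 1.77 ± 0.28 without animal 1022 (adjusted p = 0.0123). Within animals, the log2 difference of SPARC ranged from 0.49 in animal 1322 to 5.67 in animal 1022. SPARCL1 was the one gene whose animals were split. Its CPM in the border and remote zone was 250.2 and 97.5 in animal 1022, 306.3 and 136.9 in animal 1922, 233.4 and 145.8 in animal 1323, 228.8 and 224.9 in animal 3622, 219.7 and 228.8 in animal 1322, and 172.8 and 180.0 in animal 1623. The border zone libraries thus lay within 1.77-fold of each other, the narrowest of the 10 genes, and overlapped those of the remote zone. The log2 fold change of SPARCL1 was 0.48 ± 0.22 (SE, adjusted p = 0.202), 0.52 ± 0.24 with the block (adjusted p = 0.196) and 0.34 ± 0.20 without animal 1022 (adjusted p = 0.434), and of the fits run it was called only with library totals (0.80 ± 0.20, adjusted p = 0.0300).

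**Figure D3:**
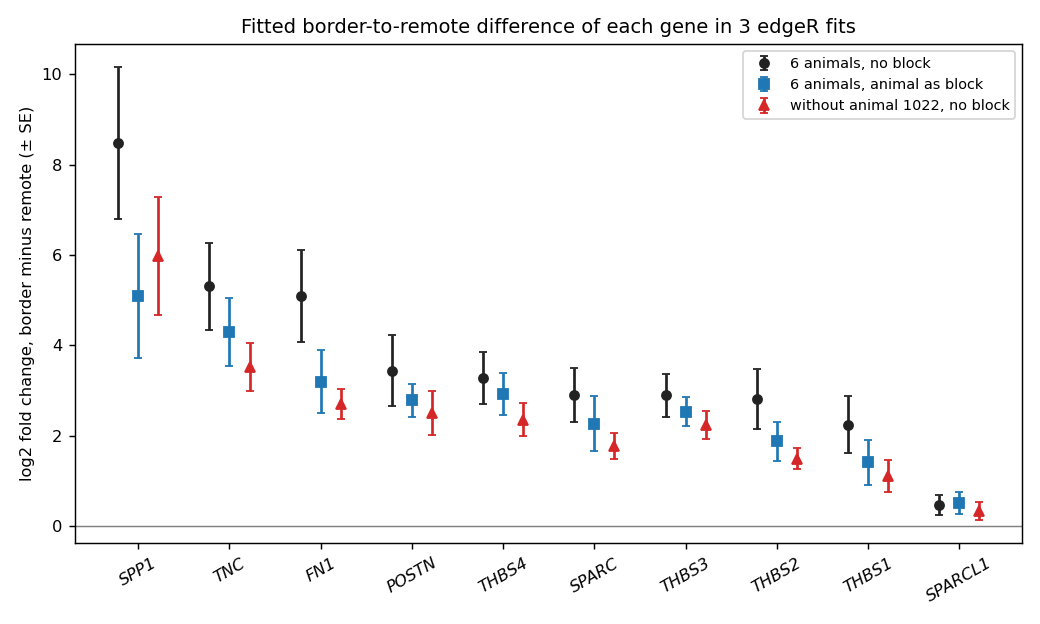
Log2 fold change, border zone minus remote zone (y axis, points), with its SE (bars) for each gene from the edgeR fit of 6 animals, the fit with the animal as a block, and the fit without animal 1022. Leaving out animal 1022 lowers all 10 values, most for SPP1 (8.48 to 5.98) and FN1 (5.09 to 2.71).

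Homologs were compared within each library, where scaling cancels apart from the prior count. The ratio of SPARC to SPARCL1 CPM was 1.93 to 2.43 in the 6 remote zone libraries and 3.26 to 39.0 in those of the border zone. The within-animal difference of this log2 ratio was 1.89 ± 1.31 (SD, n = 6, above 0 in 6 of 6 animals, two-sided exact permutation test of signs, p = 0.03125, the smallest that 6 animals allow). Adjusted over the 3 pairs of homologs tested, the exact permutation p was 0.09375, so it did not pass. The log2 ratio of THBS2 to THBS1 was higher at the border in 5 of 6 animals, by a mean of 0.45 ± 0.56 (SD, n = 6, exact permutation p = 0.125, adjusted p = 0.1875), and animal 1323 went the other way. That of THBS4 to THBS3 was higher in 4 of 6, by 0.46 ± 0.63 (SD, n = 6, exact permutation p = 0.1875, adjusted p = 0.1875).

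**Figure D4:**
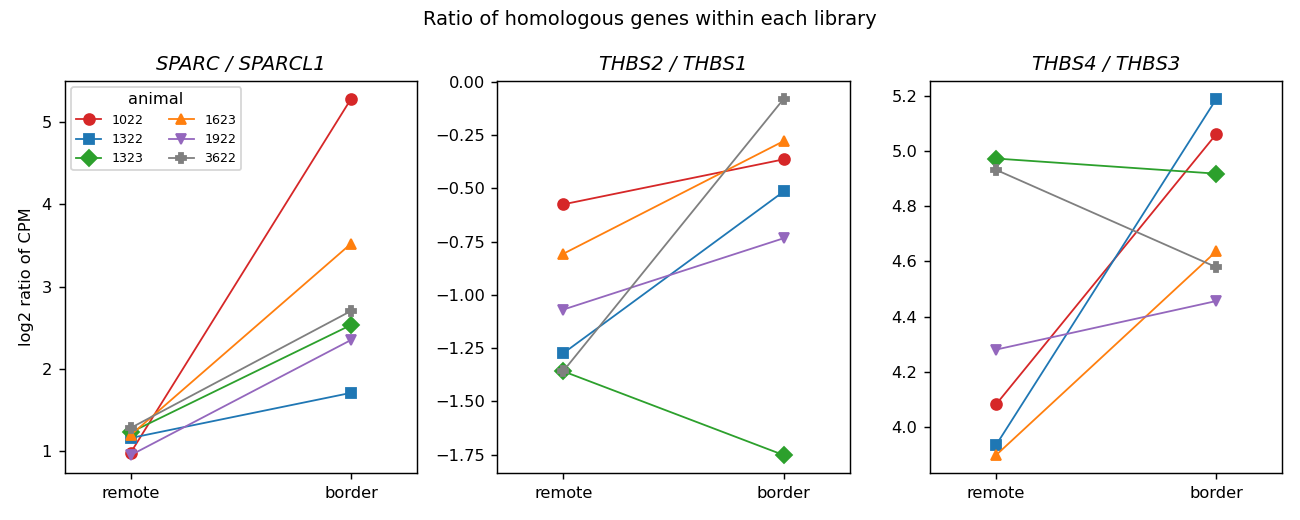
Log2 ratio of CPM of each pair of homologs (y axis, separate scales) in the remote and border zone library of each animal, joined by lines. The SPARC to SPARCL1 ratio is higher at the border in all 6 animals and has a narrow remote zone range, while 5 of 6 lines slope upward for THBS2 to THBS1 and 4 of 6 for THBS4 to THBS3.

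Levels were compared between genes as CPM per kb of exon, with exon lengths of the RefSeq annotation. In the border zone the order of the medians was SPARC (827.0), THBS4 (140.5), SPARCL1 (65.1), FN1 (34.3), POSTN (32.2), THBS1 (28), SPP1 (13.4), THBS2 (12.1), THBS3 (5.43) and TNC (3.77). The ranges over libraries of neighbours in this order overlapped except between THBS4 and SPARCL1. In the remote zone SPARC (203.8) was again first and TNC (0.272) last, and SPARCL1 (45.9) stood above THBS4 (19.6). Here neighbours overlapped except SPARC and SPARCL1, and THBS2 (3.98) and THBS3 (1.06). In animal 1022 the border zone level per kb of SPP1 reached 1370, while the highest remote zone level of SPP1 was 1.05.

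**Figure D5:**
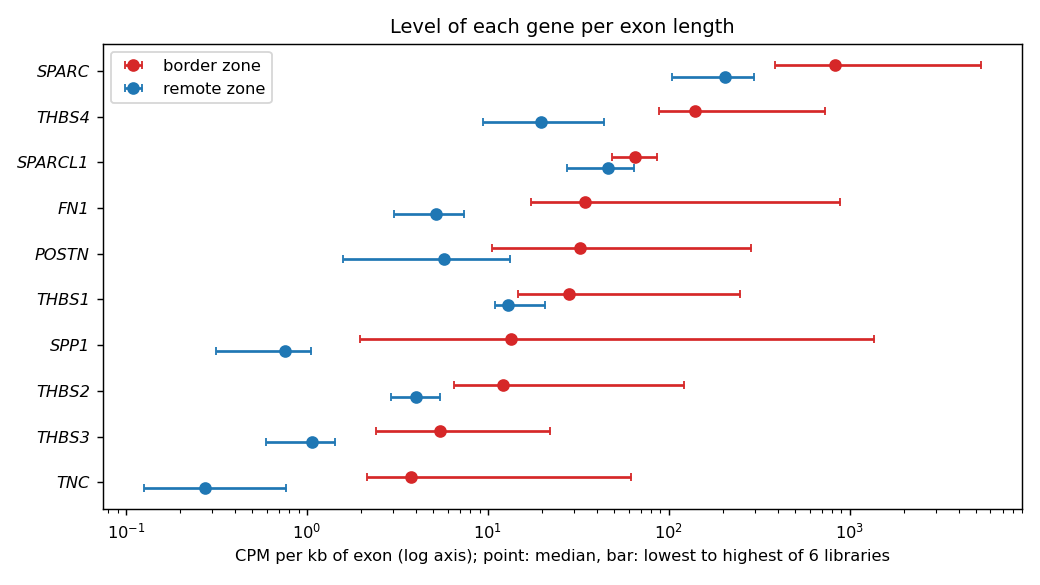
CPM per kb of exon (log axis) of the 10 genes in the border and remote zone, with a point at the median and a bar from the lowest to the highest of 6 libraries. SPARC is highest and TNC lowest in both regions by median, and the SPP1 bar of the border zone, 1.96 to 1370, is the longest.

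The animals were unlike in the size of the differences. Animal 1022 had the largest within-animal difference for 10 of 10 genes, with a median log2 difference of 4.88. Animal 1623 was second for 6 genes and had a median of 2.89, and animal 1323 was lowest for 5 genes and had a median of 1.81. The orders were not the same for every gene, since SPP1 differed least in animal 1922 and SPARC least in animal 1322. Marker sums of several cell types were set beside these values, and no sum was tested. The summed fibroblast and matrix markers (COL1A1, COL1A2, COL3A1, DCN, LUM, PDGFRA, DPT and FBN1, none at 0 in any library) were higher at the border in 6 of 6 animals, by a log2 difference of 0.79 in animal 1322 to 5.81 in animal 1022, with a median of 2.22, and 6 of the 8 genes were called higher, but 0 with the animal as a block. The sum was 3008 to 58850 CPM at the border and 1048 to 2655 CPM in the remote zone. In a comparison added after the values were seen, the difference of TNC was above that of the matrix sum in 5 of 6 animals, those of SPP1 and FN1 in 4, those of POSTN, THBS2, THBS3 and THBS4 in 3, that of SPARC in 2, and those of THBS1 and SPARCL1 in 0. Set against the macrophage sum in the same way, THBS1 was above it in 5 animals, SPARCL1 in 2, and the other 8 genes in 6. The summed macrophage markers (8 genes, none at 0) were 126.6 to 1473 CPM at the border and 115.7 to 250.1 CPM in the remote zone, higher in 5 of 6 animals, and smooth muscle and pericyte markers (7 genes, none at 0) were 449.2 to 2719 and 189.1 to 516.8 CPM, also higher in 5 of 6. The highest values of both were those of animal 1022, and the other 5 border zone libraries reached 354.6 CPM for macrophage and 829.8 for smooth muscle markers. Endothelial markers (6 genes, none at 0) were 323.0 to 494.2 and 227.3 to 537.8 CPM, higher in 3 of 6. Adipocyte markers (4 genes, of which 2 were at 0 in some library) were 1.07 to 39.9 and 0.728 to 1.84 CPM, higher in 5 of 6, and 1 of them, ADIPOQ, was called with the block (adjusted p = 0.0476) and not without it (adjusted p = 0.0540). Of the macrophage, smooth muscle and pericyte, endothelial and cardiomyocyte markers, 0 were called in either direction, with or without the block. The part of these cell types in the differences of the 10 genes was not tested.

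A list of 29 other matricellular genes was counted the same way. Of these, 23 passed the filter on low counts, and 8 were called higher in the border zone and 0 lower. The median log2 fold change of those tested was 1.70. Over all genes tested 2.06% were called higher, and the median was 0.04. The 8 were CCN4, a growth factor-binding protein of the CCN family (log2 fold change 5.35 ± 1.13, SE, adjusted p = 0.0338), the testican SPOCK1 (3.83 ± 0.51, adjusted p = 0.00875), the SPARC-related SMOC1 (2.01 ± 0.48, adjusted p = 0.0494) and SMOC2 (2.15 ± 0.46, adjusted p = 0.0338), the follistatin-like FSTL1 (1.76 ± 0.36, adjusted p = 0.0328), the fibulins FBLN1 (2.10 ± 0.44, adjusted p = 0.0338) and FBLN2 (1.51 ± 0.34, adjusted p = 0.0404), and ECM1 (1.70 ± 0.40, adjusted p = 0.0466). With the block 1 of the 23, SPOCK1, was called (adjusted p = 0.0410), against 0.289% of all genes called higher. The CPM of SPOCK1 was 1.0 to 2.63 at the border and 0 to 0.242 in the remote zone. Without animal 1323, 1623 or 3622 none of the list was called, and without animal 1922 1 gene was. Receptors of matricellular proteins (integrins, syndecans, CD44, CD47 and others) were listed as 24 genes, of which 21 had an identifier and were tested. Of the receptors, 1 was called higher and 0 lower, with a median log2 fold change of 0.78, against the same 2.06% and 0.04 over all genes. A single call is too few to set apart from that share. The receptor called was SDC1, the proteoglycan syndecan-1 (3.92 ± 0.84, SE, adjusted p = 0.0338, and 0.0807 with the block), at 2.0 to 61.5 CPM at the border and 0.572 to 1.94 in the remote zone. Of the receptors 0 were called without animal 1323, 1623, 1922 or 3622, and 3 without animal 1322.

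For 5 of the 10 genes, the genes with the nearest pattern over the 6 within-animal log2 differences are given, by the root mean square (RMS) difference among genes with a symbol that passed the filter. SPP1 had no close neighbour, its nearest being P4HA3 at 1.87, COL8A2 at 1.92 and CTHRC1 at 2.09. Nearest to POSTN were LTBP2 (0.37), COL8A1 (0.41) and KCNMA1 (0.41), and nearest to TNC were CRABP2 (0.63), CRABP1 (0.97) and COL12A1 (0.98). For SPARC they were EPHB3 (0.18), LOX (0.22) and COL5A2 (0.30), and for FN1 they were FMOD (0.43), COL12A1 (0.52) and OLFML2B (0.67). Among the 10 genes themselves, the member nearest to SPP1 was TNC (2.13), that nearest to POSTN was THBS3 (0.50), and that nearest to SPARC was THBS2 (0.83).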

How the data were processed

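RNA was sequenced in 12 libraries of pig heart, with both regions of 6 animals. The authors deposited raw counts per Ensembl gene, 1 file per library, from nondirectional poly(A) libraries aligned to Sscrofa11.1 with STAR 2.7.10a and counted with featureCounts 2.16.1, with read checks by MultiQC 1.17 and FastQC 0.12.1. The counting options are not given in the sources used here, so reads shared by overlapping genes are uncertain. Regions and animals came from the labels.

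Counts were filtered with filterByExpr (13844 genes kept), scaled by TMM and tested in edgeR 4.0.16 (R 4.3.3, limma 3.58.1) with the robust quasi-likelihood test, region as the only term and a threshold of 0.05 on the adjusted p. The SE was taken as log2 fold change over the root of F. Log2 CPM used a prior count of 2. Identifiers were paired with symbols for 15623 of 35682 genes. CD36, SDC4, LRP1 and MYH7 had no identifier by this table. Positions, exon lengths and upstream sequence came from the RefSeq annotation of Sscrofa11.1, which is not the Ensembl annotation used for counting. Python 3.11.15, pandas 2.3.3, NumPy 2.4.6, SciPy 1.17.1 and matplotlib 3.10.9 were used, and the fits were tested on simulated data.

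Both libraries of a number came from 1 animal, which pairs them. Deviations from the region means correlated across genes with r from -0.03 (animal 1022) to 0.57 (animal 1323), with a mean of 0.35 and over 0.1 in 4 of 6 pairs. Genes are not independent replicates. No pair of libraries agreed within sampling noise (lowest chi-square per gene 27.5). Separate animals make the replicates. Counts cannot tell PCR copies from separate molecules.

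The members and gene lists were chosen with earlier results of these data known. The genes named were the 10 members, the 3 genes nearest to each of at most 5 members, and every listed gene past the threshold. Where a list had over 8 such genes, the 4 with the largest and the 2 with the smallest change were to be named. Alternatives were the animal as a block, DESeq2 1.42.0, DESeq2 size factors, library totals, no filter, 10 counts in every library, no mitochondrial genes, a prior count of 0.5 and leaving out each animal. Leaving out animals in the blocked fit was added after seeing the data.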

Additional observations from a re-analysis of the deposited data

Results flagged for a closer look

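In 3 of the 20 groups compared (10 genes in 2 regions), the highest library lay far from the other 5 by Dixon's criterion for 6 values, where chance gives about 1 in 20. All were the border zone library of animal 1022. The groups of a region share the same 6 libraries, so the 3 are not independent outcomes to set against that rate. THBS2 stood at a log2 CPM of 10.12 with the next library at 7.24, THBS4 at 11.20 with the next at 9.07, and FN1 at 12.88 with the next at 9.06. Of the summed CPM in the border zone, the same library held 68.3% for THBS2, 53.6% for THBS4 and 83.4% for FN1. All 3 genes passed the test without animal 1022, with log2 fold changes of 1.5, 2.36 and 2.71 (edgeR, Benjamini-Hochberg adjusted p = 0.0104, 0.0118 and 0.00552).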

How the results depend on the processing

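No alternative that gave a test turned the direction of any of the 10 genes. Of their planned single-gene values, 78 kept their side of the threshold, 47 lost the call and 3 gained it. Of the added ones, 19 kept it, 40 lost it and 1 gained it. Over all genes, 287 were called. With the animal as a replicate block 41 were called, with the DESeq2 Wald test 1724 (1415 higher and 309 lower), with library totals 1551, without a filter 139 and with at least 10 counts in every library 149. Without 1 animal the count ranged from 0 to 519. Leaving out 1322 gave 519 genes, leaving out 1022 gave 163, leaving out 1922 gave 15 and leaving out 1323 gave 3, and the count was 0 without animal 1623 or 3622 by edgeR, while 2662 and 2448 passed at an unadjusted p under 0.05. Of the 10 genes, 8 were called, 2 with the block, 3 without a filter, 7 with at least 10 counts in every library and 0 to 8 without 1 animal. With DESeq2 size factors 7 of the 10 were called, and 211 over all genes. In the blocked fit without 1 animal, an alternative chosen after seeing the data, 0 to 856 genes and 0 to 8 of the 10 were called, the highest count of each without animal 1022. Of the other matricellular genes 8 were called, 1 with the block, 5 with DESeq2 size factors, 16 with library totals, 3 without a filter, 4 with at least 10 counts in every library, 0 to 10 without 1 animal, and 0 to 9 in the blocked fit without 1 animal. Of the receptors 1 was called, 0 with the block, 9 by DESeq2, 10 with library totals, 0 without a filter, 0 to 3 without 1 animal, and 0 to 5 in the blocked fit without 1 animal. With library totals all 10 were called, and 1545 of all 13844 genes were called higher. The median over all genes was then 0.32 in place of 0.04, and that over the 10 was 3.54 in place of 3.09. DESeq2 gave FN1 and THBS2 no adjusted p and called 7 of the other 8. Over all genes it called 1415 higher, of 16688 with an adjusted p. FN1 and THBS2 were both flagged above for the border zone library of animal 1022, while THBS4, the other gene flagged, was called. Without regard to the animal, the SPARC to SPARCL1 difference of 1.89 passed (exact permutation test, adjusted p = 0.00649). Some fits hold fewer genes or samples, and otherwise the cause was not tested. With 6 animals, an exact permutation test of signs cannot go below 0.03125.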

Other observations

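SPP1 and SPARCL1 lie on the same chromosome, at chr8:131077786-131085334 (minus strand) and chr8:131386804-131431427 (plus strand), with 301469 bases between them (Sscrofa11.1, RefSeq). Between them lie MEPE, IBSP and DMP1, genes of bone and tooth matrix named here after their values were seen. The annotation also places there the lncRNA LOC106504772 and part of DSPP, a tooth matrix gene whose span covers SPARCL1 on the other strand with no exon in common, and neither was paired with an identifier in the counts. None of MEPE, IBSP and DMP1 passed the filter on low counts. MEPE had 1 count in the 6 border zone libraries together and 0 in the remote zone, IBSP had 37 in the border zone, 36 of them in 1 library, and 2 in the remote zone, and DMP1 had 79 and 57. SPP1 had 73436 counts in the border zone and 157 in the remote zone, and SPARCL1 had 35097 and 22332.

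COMP, a relative of the thrombospondins, was named after its values were seen. Like SPP1, it was picked by the study when organoid and control animals were compared within the border zone, and whether the treatment moved with its spread was not tested. Its CPM was 4.42 to 904.3 at the border and 0 to 7.08 in the remote zone, higher at the border in 5 of 6 animals, and it did not pass (log2 fold change 6.75 ± 1.75, SE, edgeR, Benjamini-Hochberg adjusted p = 0.0560, and 0.0838 with the block). FBLN5 and VTN, also named after their values were seen, which code for the elastic fibre protein fibulin-5 and for vitronectin, had lower values in the border zone of 6 of 6 animals and did not pass either (log2 fold changes -0.25 ± 0.16 and -0.43 ± 0.24, adjusted p = 0.334 and 0.271).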
